A study of Mus musculus with 4 samples.

Results

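A group of 40 genes that act in mitosis and in the spindle checkpoint was examined in 4 cultured mouse mammary tumor cell lines. The genes were chosen by symbol from a list of mitotic kinases, checkpoint proteins, kinesins and centromere, chromosome condensation and sister separation genes. Measured values were not the rule of choice, but earlier results of these data were known when the genes were chosen. All 40 were found among the 38713 genes of the expression table, and all 40 passed the filter that left 12998 genes for testing (1 FPKM or more in 2 or more libraries). FPKM are sequenced fragments scaled by transcript length and by the fragments mapped in the library, so levels of different genes can be set side by side on this scale.

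RNA was sequenced from tumor cells of C57BL/6 mice whose Wap-Cre transgene (Cre recombinase under the Wap promoter) deleted floxed Trp53, the p53 gene (genotype p53-/-, JNK_WT, replicates 1 and 2), or deleted Trp53 together with floxed Mapk8 and Mapk9, the genes of the stress-activated kinases JNK1 and JNK2 (genotype p53-/- JNK-/-, JNK_KO, replicates 1 and 3). Wap-Cre is switched on in luminal mammary epithelium by lactation, and the deletion of Trp53 is shared by all 4 lines, so no line with intact p53 was compared. Each line came from 1 tumor and gave 1 library (n = 2 per group), and the comparison asked whether loss of JNK altered expression in tumor cells that already lacked p53. No treatment was given, and the age of the mice was not given in the labels.

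Cells enter mitosis when cyclin B binds and activates Cdk1. The spindle checkpoint then holds back the anaphase-promoting complex, through Mad2, BubR1 and Bub3 bound to its activator Cdc20, until every kinetochore is attached to microtubules. Once the checkpoint is satisfied, securin and cyclin B are destroyed, separase cuts cohesin, and the sister chromatids part. Most genes of this machinery are transcribed late in the cell cycle. Their promoters are repressed in resting cells by the DREAM complex and switched on in dividing cells by the MYB-MuvB complex, FOXM1 and NF-Y, largely through CCAAT boxes bound by NF-Y and through the cell cycle genes homology region (CHR). In a bulk RNA sample their summed level follows the share of cells near mitosis as well as the RNA per cell, and these cannot be told apart.

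Promoter sequences were read first. Promoter elements were not used to choose the genes, but CCAAT boxes and the CHR are known features of this gene class. Their counts therefore describe the list and are not an independent test. RefSeq windows of 300 bases (250 before to 50 after the transcription start, GRCm38.p6) were at hand for 33 of the 40 genes, and 36 windows in all because some genes have more than 1 start. The letters CCAAT (NF-Y box) and TTTGAA (CHR) were searched on both strands, and no match of one shared a base with a match of the other. The 100 bases before the start are printed 5′ to 3′ on the gene's strand for 7 genes. GENCODE M21 places at most 26 of these bases inside the gene for those shown. Cdk1, Cdc20, Top2a and Kif11 are examples of genes with both elements in that stretch, and Ccnb2 and Hmmr have 3 NF-Y boxes there. Mad2l1, the member with the lowest log2 difference (JNK_KO minus JNK_WT), had neither element anywhere in its window. Pttg1, the member with the highest log2 difference, also had neither. The same was true of Birc5, Nuf2, Kif18a and Plk4, with differences of 0.16, 0.52, 0.12 and 0.08. A relation between these elements and the differences was not tested. Capitals mark the NF-Y boxes (CCAAT, or ATTGG on the opposite strand) and the CHR (TTTGAA, or TTCAAA on the opposite strand).
Cdk1 (chr10:69352913-69353012, minus strand): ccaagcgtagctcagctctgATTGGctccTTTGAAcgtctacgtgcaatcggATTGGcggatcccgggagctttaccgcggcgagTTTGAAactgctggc
Cdc20 (chr4:118437344-118437443, minus strand): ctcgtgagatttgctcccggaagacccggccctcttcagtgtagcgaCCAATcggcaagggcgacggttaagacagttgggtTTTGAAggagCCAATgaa
Top2a (chr11:99024190-99024289, minus strand): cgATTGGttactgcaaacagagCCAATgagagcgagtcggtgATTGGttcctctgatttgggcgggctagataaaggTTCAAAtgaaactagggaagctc
Kif11 (chr19:37376282-37376381, plus strand): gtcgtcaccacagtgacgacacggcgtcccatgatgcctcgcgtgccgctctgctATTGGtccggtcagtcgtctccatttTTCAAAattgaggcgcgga
Ccnb2 (chr9:70421555-70421654, minus strand): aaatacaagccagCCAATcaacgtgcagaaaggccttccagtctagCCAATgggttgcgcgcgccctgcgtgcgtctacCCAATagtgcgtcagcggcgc
Hmmr (chr11:40733438-40733537, minus strand): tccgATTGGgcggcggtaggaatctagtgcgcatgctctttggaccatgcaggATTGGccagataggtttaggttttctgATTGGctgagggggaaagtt
Mad2l1 (chr6:66535121-66535220, plus strand): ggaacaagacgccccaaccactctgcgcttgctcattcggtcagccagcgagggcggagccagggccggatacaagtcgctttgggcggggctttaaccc

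An NF-Y box was present in the window of 24 of 33 members (72.7%), against 43.4% of the 8946 tested genes with a window and 41.1% of all 27025 genes with one. A CHR was found in 23 members (69.7%), against 13.9% of the tested genes and 20.2% of all genes. The combination of both was found in 20 members (60.6%), against 5.86% and 7.97%, and 15 members (45.5%) had 2 or more NF-Y boxes, against 17% and 13.3%. E2F-type letters (TTTCGCGC, TTTGGCGC, TTTCCCGC or TTTGCCGC), an element of S phase promoters, were present in 3 members (9.09%), against 4.91% and 2.6%, and a TATAAA box was present in 1 (3.03%), against 8.5% and 15.7%. Over the 36 windows, the 56 NF-Y boxes lay between -225 and 10 bases from the start with a median of -67.5. The 34 CHR lay between -177 and 43 with a median of -14.5. Matches shared by the overlapping windows of Bub3, Ect2 and Prc1 were counted once in each window, also for these medians. Windows of 6 members, Mad2l1, Birc5, Nuf2, Kif18a, Plk4 and Pttg1, held neither element. Those of Mad2l1, Plk4 and Pttg1 did not include the gene start given by GENCODE M21. The elements counted here are matches of letters in reference sequence and were not measured as binding. No match says only that these letters are not in this window.

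**Figure D1:**
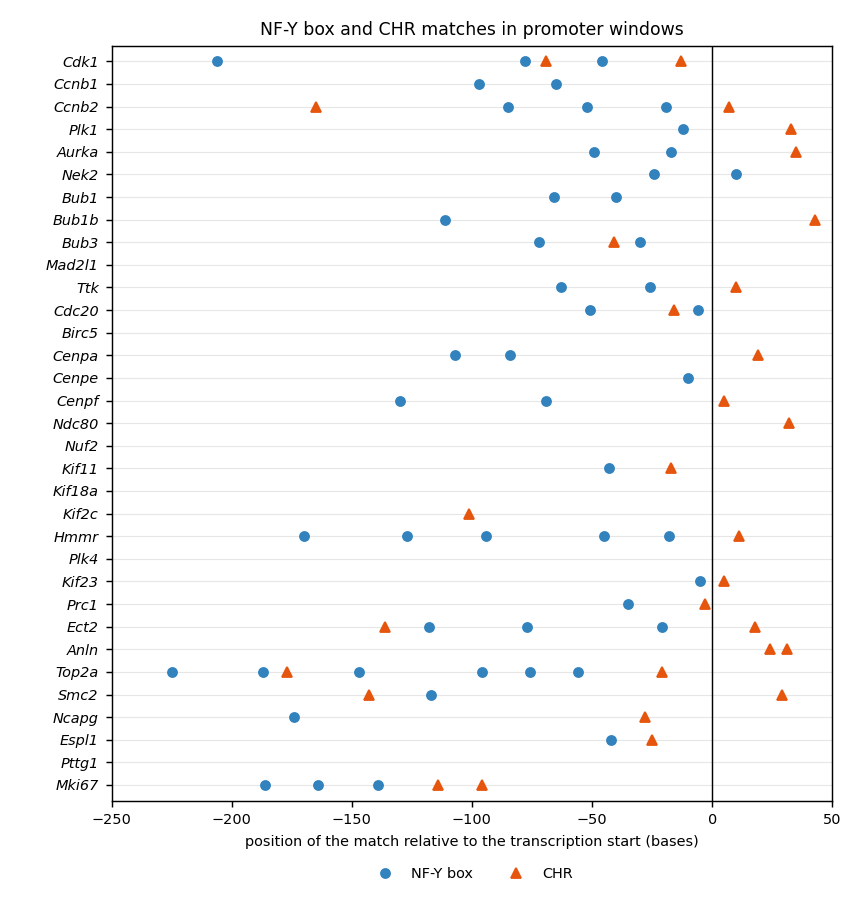
Centres of NF-Y box matches (circles) and CHR matches (triangles) in the promoter windows of 33 genes, in bases from the transcription start (0, vertical line); where a gene has several windows 1 is drawn. NF-Y boxes gather upstream of the start and the CHR lie nearer to it, and 6 genes have neither.

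The 40 genes were expressed in every line. Mean levels over the 4 libraries ran from 7.70 FPKM for Espl1 to 238 FPKM for Cdk1. Only 3 members averaged under 10 FPKM (Cenpe, Kif18a and Espl1), and 2 averaged over 100 FPKM (Cdk1 and Top2a). Ranked by mean level among the 12998 genes tested, the members ran from percentile 33.7 to percentile 97.2 with a median of 77.9, and 21 of them were in the upper quartile of the tested genes. Together they summed to 1923 and 1536 FPKM in JNK_WT replicates 1 and 2 and to 2208 and 1665 FPKM in JNK_KO replicates 1 and 3, so the higher line of either genotype exceeded the lower line of the other.

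**Figure D2:**
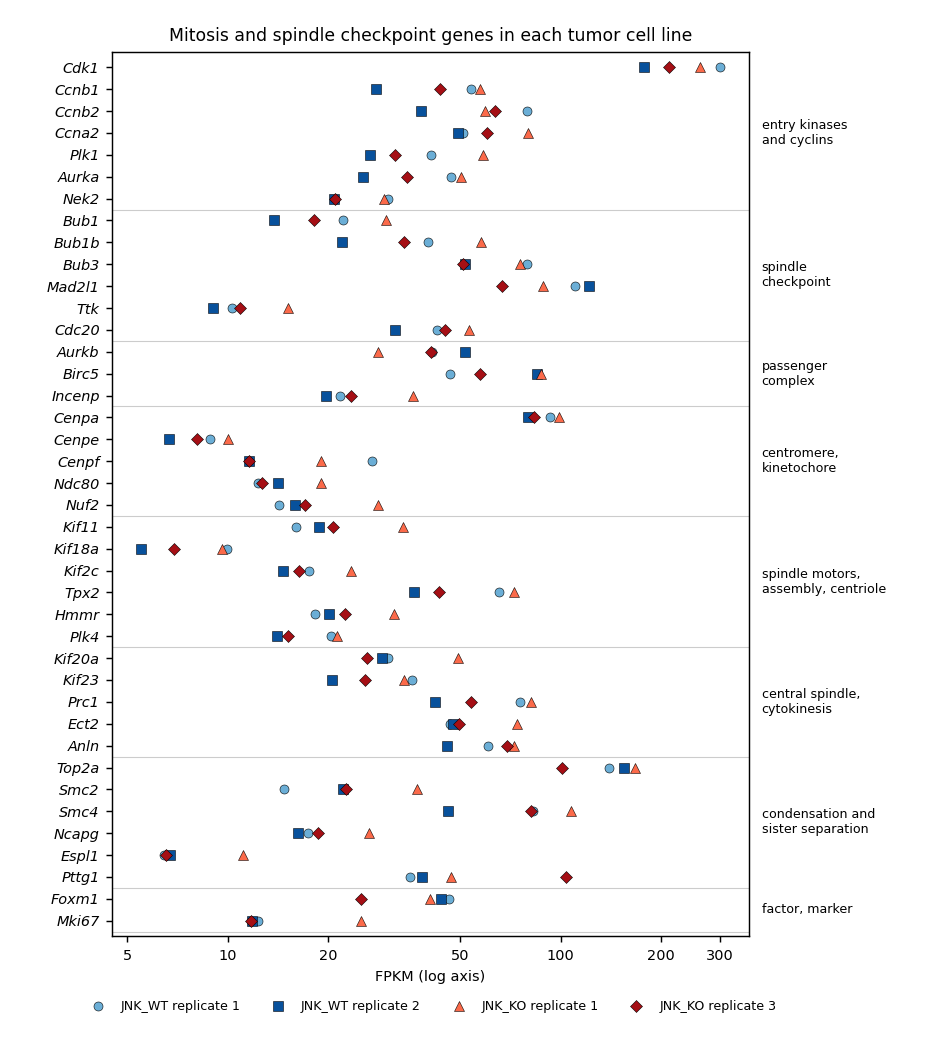
FPKM (log axis) of the 40 genes in each of the 4 libraries, grouped by role; each symbol is 1 library. Levels run from 5.51 FPKM (Kif18a, JNK_WT replicate 2) to 301 FPKM (Cdk1, JNK_WT replicate 1), and the triangle of JNK_KO replicate 1 is the highest symbol for 29 genes.

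No mitotic gene was called different between JNK_KO and JNK_WT cells. A call needed, on the log2(FPKM + 1) scale, a difference of over 0.75 in either direction and a limma adjusted p-value under 0.05 over all 12998 genes, the study's thresholds. The count was 0 of 40 members, beside 0 of 12998 genes in all (0%), and the smallest limma adjusted p-value of a member was 0.714 (Mad2l1). Mapk8, 1 of the genes deleted in JNK_KO cells, was not called either (limma adjusted p-value 0.191), so with 2 lines a group a count of 0 does not show that levels were alike. An unadjusted p-value under 0.05 was seen for 0 members, against 7.63% of all genes tested. The differences, JNK_KO minus JNK_WT, lay between -0.59 (Mad2l1) and 0.90 (Pttg1) with a median of 0.27, where the median of all tested genes was 0.01. They were above 0 for 33 members and below 0 for 7, and within 1 SE of 0 for 21, while 51.4% of all genes tested were above 0. Leaving out JNK_KO replicate 1 brought the members above 0 to 20, and leaving out JNK_WT replicate 2 to 23. A difference over 0.75 was seen for 1 member higher in JNK_KO cells (2.5%, against 9.25% of all genes) and for 0 lower (against 6.43%). Both JNK_KO lines were above both JNK_WT lines for 12 members (30.0%, against 18.3% of all genes), and both lay below for 3 (7.5%, against 16.7%), while the groups overlapped for 25. The median of 0.27 depended on single lines of both genotypes. It was -0.0017 without JNK_KO replicate 1 and 0.52 without JNK_KO replicate 3. Without JNK_WT replicate 1 it was 0.44, and without JNK_WT replicate 2 it was 0.12.

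**Figure D3:**
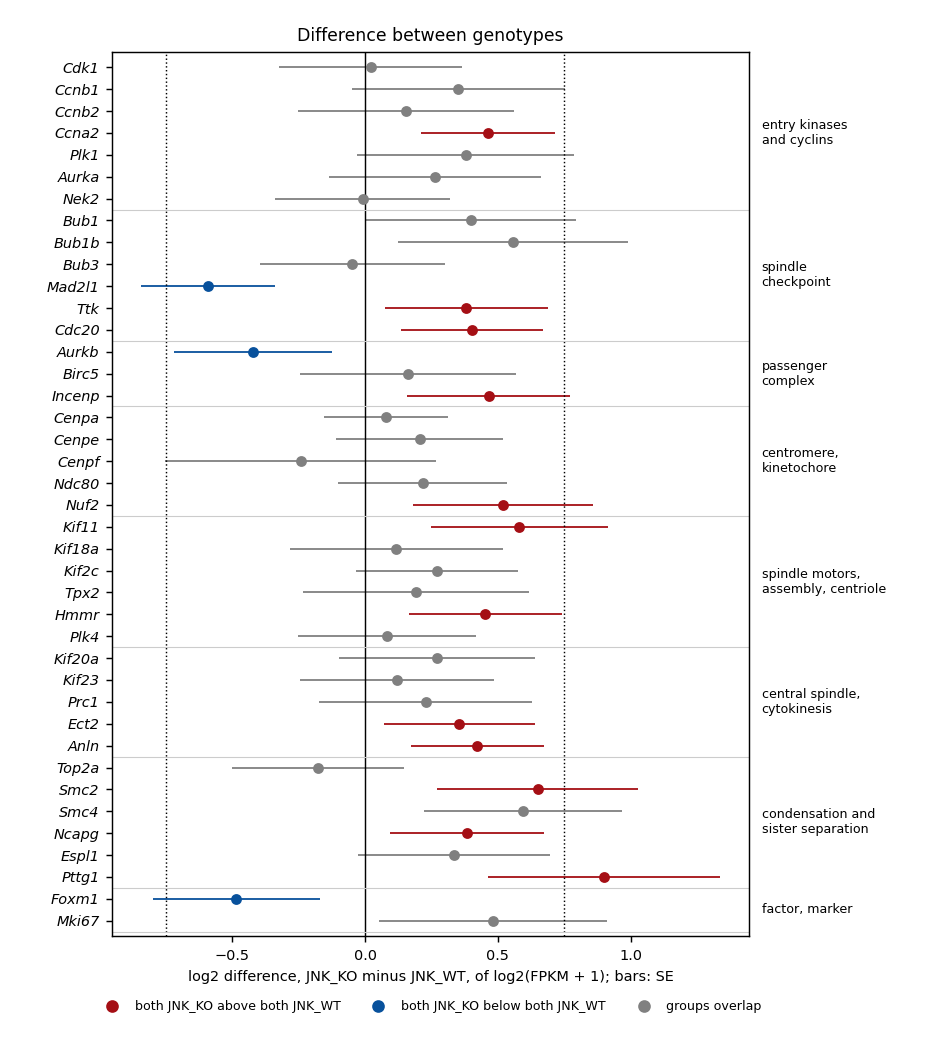
Log2 difference, JNK_KO minus JNK_WT, of log2(FPKM + 1) for each gene (points) with its limma standard error (bars), n = 2 lines per genotype; dotted lines mark 0.75 in either direction. The point of Pttg1 (0.90) alone lies past a dotted line, and colours mark the 12 genes higher and the 3 lower in both JNK_KO lines.

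Values below are given in the order JNK_WT replicates 1 and 2, then JNK_KO replicates 1 and 3. Among the 7 genes that drive entry into mitosis, the genotypes overlapped for 6, beside 8450 of the 12998 genes tested. Their median log2 difference was 0.26. Cdk1, the kinase that triggers mitosis, was at 301 and 178 FPKM in JNK_WT and at 261 and 211 FPKM in JNK_KO lines. Ccnb1, the cyclin B1 partner of Cdk1, was at 53.9 and 27.8, then 57.1 and 43.3 FPKM. The JNK_WT lines lay on either side of both JNK_KO lines for Cdk1, and the groups overlapped for Ccnb1, with log2 differences of 0.02 (SE 0.34) and 0.35 (SE 0.40). Plk1, the Polo-like kinase needed for centrosome maturation and mitotic exit, was at 40.7 and 26.7, then 58.5 and 31.9 FPKM (log2 difference 0.38, SE 0.41). Aurka, the centrosomal Aurora A kinase, was at 46.9 and 25.4, then 50.1 and 34.7 FPKM (0.26, SE 0.40). In each of these kinases JNK_KO replicate 3 fell between the JNK_WT lines. Nek2, a kinase of centrosome separation and the member with the lowest mean level of this role, was at 30.2 and 20.8, then 29.5 and 21.0 FPKM, nearly the same pair of values in either genotype. Ccnb2, the cyclin B2 gene, ran from 38.1 to 79.2 FPKM with both extremes in JNK_WT lines. Ccna2, cyclin A2 of S phase and G2, was the only gene of the 7 whose groups did not overlap, at 50.8 and 49.1 FPKM in JNK_WT and 80.0 and 59.9 FPKM in JNK_KO cells (log2 difference 0.46, SE 0.25, limma adjusted p-value 0.831).

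Spindle checkpoint genes had differences of both signs, and none was called. Bub1b, which encodes the checkpoint protein BubR1, was at 39.9 and 22.1 FPKM in JNK_WT and 57.8 and 33.9 FPKM in JNK_KO cells, a log2 difference of 0.56 (SE 0.43) with overlapping groups. Bub1, the kinase that recruits checkpoint proteins to kinetochores, had the same order of lines, at 22.2 and 13.8, then 29.9 and 18.2 FPKM. Mad2l1, the Mad2 protein that is bound to Cdc20 by unattached kinetochores, had a difference of the opposite sign. It was at 110 and 122 FPKM in JNK_WT and at 88.3 and 66.6 FPKM in JNK_KO lines (116 ± 8.04 against 77.4 ± 15.4 FPKM, SD, n = 2 each), with no overlap. Its log2 difference was -0.59 (SE 0.25, limma adjusted p-value 0.714), and leaving out 1 library gave -0.79 to -0.39. Mad2l1 (chr6:66535390-66547220) lies on chromosome 6. There the median log2 difference over 628 tested genes was also -0.59, and 76.1% of genes were below 0. The study's exome data showed chromosome 6 amplified in JNK_WT tumor cells and in some JNK_KO tumor cells. Copy number was not examined here, and the part of this shift in the value of Mad2l1 was not tested. Ttk, the checkpoint kinase Mps1 and the least expressed of these genes, was at 10.3 and 9.06, then 15.2 and 10.9 FPKM. Cdc20, the activator of the anaphase-promoting complex and the target of the checkpoint, was at 42.5 and 31.8, then 53.1 and 45.0 FPKM. Both JNK_KO lines were above both JNK_WT lines for Ttk and Cdc20, with log2 differences of 0.38 (SE 0.31) and 0.40 (SE 0.27). Bub3, the partner of Bub1 and BubR1, ran from 50.8 to 79.5 FPKM, with overlapping groups and a difference of -0.05.

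The chromosomal passenger complex corrects wrong attachments at the centromere, and the differences of its genes had both signs. Aurkb, its kinase Aurora B, was at 41.0 and 51.6 FPKM in JNK_WT and at 28.3 and 40.9 FPKM in JNK_KO lines. The groups were apart only by the small gap between JNK_WT replicate 1 and JNK_KO replicate 3, and the log2 difference was -0.42 (SE 0.30, limma adjusted p-value 0.917). Aurkb is on chromosome 11, where 1094 tested genes had a median difference of -0.20 and 71.9% were below 0. Birc5, Hmmr, Top2a and Pttg1 lie on it too. Shifts of the other sign were seen on chromosome 4 (median 0.19, 28.9% below 0), which holds Cdc20, Kif2c and Smc2. Chromosomes 2 and 3, with 5 members each, both had a median of 0.12. The part of these shifts in the values of the members was not tested. Incenp, the scaffold of the complex, was at 21.8 and 19.8, then 35.9 and 23.4 FPKM, higher in both JNK_KO lines (0.47, SE 0.31). Birc5, the subunit survivin, was at 46.7 and 84.9, then 87.1 and 57.2 FPKM. Birc5 and Smc2 were the 2 members whose level in JNK_WT replicate 1 was 1.5-fold or more below that in JNK_WT replicate 2, and the groups overlapped for Birc5.

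Centromere and kinetochore genes had log2 differences between -0.24 (Cenpf) and 0.52 (Nuf2), and none was called. Cenpa, the histone H3 variant that marks centromeres, was at 92.7 and 79.8 FPKM in JNK_WT and 99.1 and 83.4 FPKM in JNK_KO cells, a log2 difference of 0.08 (SE 0.23). Cenpe, a kinetochore motor and the lowest of these genes, was at 8.85 and 6.69, then 10.1 and 8.11 FPKM. Groups overlapped for both. Of the outer kinetochore pair that holds microtubules, Nuf2 was at 14.3 and 15.9, then 28.4 and 17.1 FPKM, and did not overlap (0.52, SE 0.34). Its partner Ndc80, at 12.3 and 14.2, then 19.0 and 12.7 FPKM, did. Cenpf, a large kinetochore protein, had the widest ratio between the JNK_WT lines of all 40 genes, at 27.1 and 11.6 FPKM (2.34-fold).

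Genes of spindle motors, spindle assembly and centrioles all had differences above 0, from 0.08 (Plk4) to 0.58 (Kif11), and none was called. Kif11, the Eg5 motor that pushes spindle poles apart, was at 16.01 and 18.8 FPKM in JNK_WT and at 33.6 and 20.7 FPKM in JNK_KO lines, without overlap (0.58, SE 0.33, limma adjusted p-value 0.851). JNK_KO replicate 3 was only slightly above JNK_WT replicate 2, and the distance came from JNK_KO replicate 1. Tpx2, an activator of Aurora A on spindle microtubules, was the highest of these genes, at 65.3 and 36.4, then 72.4 and 43.1 FPKM. Kif18a, a motor that limits chromosome oscillation, was the lowest, at 9.99 and 5.51, then 9.63 and 6.92 FPKM. In these last 2 genes replicate 1 of either genotype was far above the other replicate. Hmmr, a spindle and hyaluronan-binding protein, did not overlap (0.45, SE 0.29), while Kif2c, a microtubule-depolymerizing motor, and Plk4, the kinase of centriole duplication, did.

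The 5 genes of the central spindle and cytokinesis also had differences above 0, between 0.12 (Kif23) and 0.42 (Anln), and none was called. Prc1, which bundles the antiparallel microtubules of the central spindle, was the most expressed, at 75.5 and 42.0, then 81.6 and 53.8 FPKM. Kif23, the motor of centralspindlin, was the least, at 35.7 and 20.6, then 33.9 and 25.8 FPKM. Both overlapped between genotypes, as did Kif20a, a motor that carries cytokinesis proteins, at 30.3 and 29.0, then 49.2 and 26.3 FPKM. Anln, the anillin scaffold of the contractile ring, and Ect2, the exchange factor that activates RhoA there, were higher in both JNK_KO lines. In Anln the JNK_KO lines lay close together, and the values were 60.3 and 45.6, then 72.2 and 69.2 FPKM (0.42, SE 0.25).

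Chromosome condensation and sister separation genes had the highest median difference of the 8 roles (0.49 over 6 genes), and 3 of them were higher in both JNK_KO lines (50%, against 18.3% of all genes). Pttg1 (chr11:43420250-43426251) encodes securin, the inhibitor of separase. It was at 35.4 and 38.3 FPKM in JNK_WT and at 46.7 and 104 FPKM in JNK_KO lines, so that JNK_KO replicate 3 alone was far from the others. Its log2 difference of 0.90 (SE 0.44, limma adjusted p-value 0.781) was the only one past 0.75, and it was 0.33 at the lowest when 1 library was left out, which was without JNK_KO replicate 3. Espl1, the separase that securin holds inactive and the lowest member of all, was at 6.44 and 6.71, then 11.1 and 6.54 FPKM, and its groups overlapped. The condensin core subunit Smc2 was at 14.7 and 22.2, then 37.1 and 22.6 FPKM (0.65, SE 0.38), and its partner Smc4 at 82.7 and 45.9, then 108 and 81.4 FPKM (0.59, SE 0.37). Smc2 did not overlap and Smc4 did, and the JNK_WT lines held these partners in opposite order. Ncapg, a condensin I subunit, was higher in both JNK_KO lines (0.38, SE 0.29). Top2a, the topoisomerase that untangles sister chromatids, was at 140 and 155, then 167 and 101 FPKM, with JNK_KO lines on either side of both JNK_WT lines (-0.18, SE 0.32).

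Foxm1 and Mki67 had differences of opposite sign. Foxm1, a transcription factor of late cell cycle genes, was at 46.3 and 43.8 FPKM in JNK_WT and at 40.5 and 25.1 FPKM in JNK_KO lines, lower in both JNK_KO lines (-0.48, SE 0.31, limma adjusted p-value 0.886). Foxm1 (chr6:128362967-128376146) shares chromosome 6 and its median of -0.59 with Mad2l1, and the part of this shift was not tested for Foxm1 either. Mki67, the Ki-67 proliferation marker, was at 12.3 and 11.9 FPKM in JNK_WT and at 25.2 and 11.8 FPKM in JNK_KO lines. JNK_KO replicate 1 was 2.14-fold above replicate 3, the widest such ratio of the 40 genes, and the other 3 libraries lay together. The log2 difference of Mki67 was 0.48 (SE 0.43), and leaving out JNK_KO replicate 1 brought it to -0.04.

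Most members were highest in JNK_KO replicate 1 and most were lowest in JNK_WT replicate 2, with both true of 18 genes. JNK_KO replicate 1 was the highest library for 29 of the 40 genes (72.5%), against 24.8% of all genes tested. The count was 19 when the libraries were scaled to equal FPKM sums, a scaling for which no share over all genes was taken. JNK_KO replicate 1 exceeded JNK_KO replicate 3 in 37 genes (92.5%, against 48.6% of all genes), with Ccnb2, Aurkb and Pttg1 as the exceptions. JNK_WT replicate 2 was the lowest library for 23 genes (57.5%, against 27.4%), and JNK_WT replicate 1 exceeded it in 28 (70%, against 49.8%). Taken as deviations from the 4-library mean on the log2 scale, the members had medians of 0.06 and -0.28 in JNK_WT and 0.38 and -0.12 in JNK_KO lines. The median distance of 2 lines of the same genotype was 0.38 for the JNK_WT lines and 0.53 for the JNK_KO lines, as an absolute log2 difference. Between genotypes it was 0.24, 0.28, 0.41 and 0.68, the last between JNK_WT replicate 2 and JNK_KO replicate 1, the lines with the highest and lowest medians. JNK_WT replicate 1 and JNK_KO replicate 3, of different genotype, differed by a median of 0.28, less than either pair of lines of the same genotype. Over all genes tested the JNK_WT pair was at 0.43, the farthest apart of the pairs, while the JNK_KO pair was at 0.33 and pairs of different genotype were between 0.36 and 0.41.

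**Figure D4:**
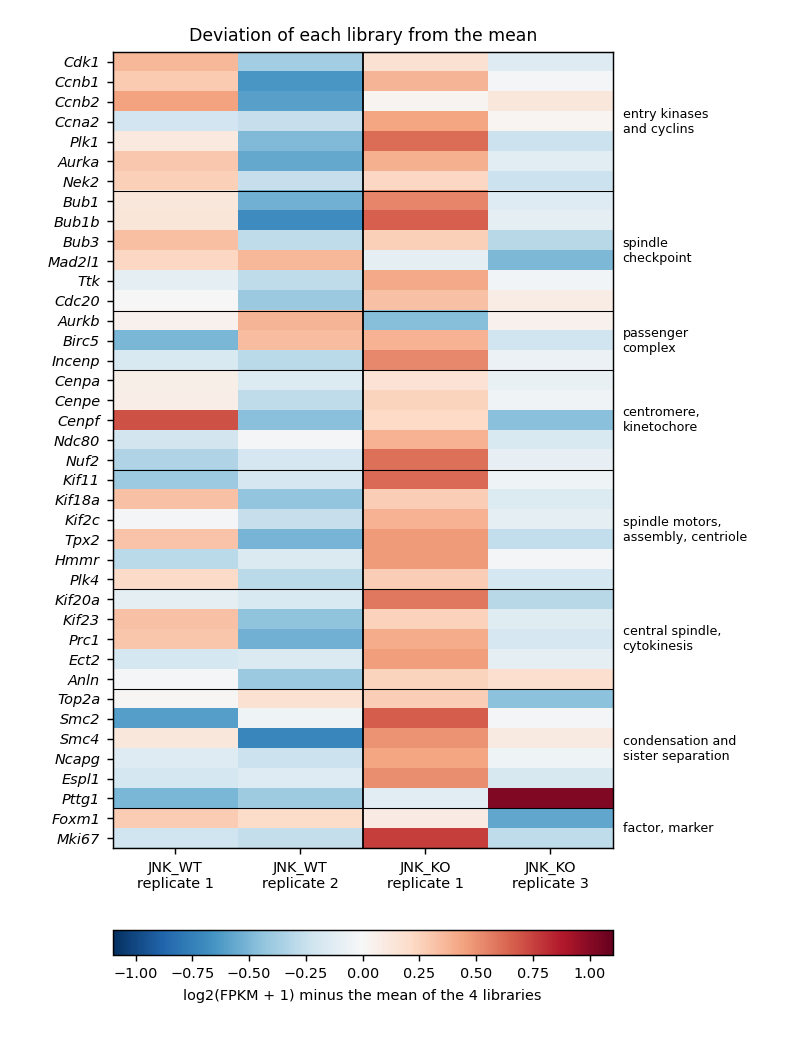
Deviation of log2(FPKM + 1) in each library from the mean of the 4 libraries, for the 40 genes grouped by role (red above, blue below the mean). The column of JNK_KO replicate 1 is red for most genes and that of JNK_WT replicate 2 is blue for most, with Mad2l1, Aurkb and Pttg1 among the genes that depart from this.

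Ratios between the lines of a genotype were taken for each gene. JNK_WT replicate 1 was at least 1.5-fold above replicate 2 in 14 members (35%, against 20.3% of all genes tested), with a range of ratios from 0.55 (Birc5) to 2.34 (Cenpf) and a median of 1.18. JNK_KO replicate 1 was at least 1.5-fold above replicate 3 in 17 members (42.5%, against 15.3% of all genes), with a range from 0.45 (Pttg1) to 2.14 (Mki67) and a median of 1.44. Across the 40 genes the log2 difference between the JNK_WT lines and that between the JNK_KO lines had a Pearson correlation of 0.04, and of 0.18 across all tested genes. Genes are not independent replicates, and each of these differences rests on 1 library against 1.

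Other properties of the lines are given beside these levels, and their part in them was not tested. Relative to JNK_KO replicate 1, the depth estimated from the steps of low FPKM values was 1.06 and 1.27 in JNK_WT replicates 1 and 2. It was 1.4 in JNK_KO replicate 3, so by this estimate the line with the highest mitotic levels was the shallowest. The ratios used were shared by 203 of 4368, 199 of 4314 and 515 of 4961 low genes, in the same order. The authors report sampling the libraries to a similar read number, and the estimate was not checked against read numbers. FPKM summed over all genes to 775960 and 841930 in JNK_WT and to 921595 and 804894 in JNK_KO cells. The 8 epithelial markers were all detected and summed to 4063 and 3138 FPKM in JNK_WT and to 1313 and 2768 FPKM in JNK_KO cells, lowest in JNK_KO replicate 1. The 9 fibroblast and mesenchymal markers summed to 343, 49.0, 609 and 337 FPKM in the same order, and most of this was Vim (vimentin), at 331, 47.2, 500.4 and 159 FPKM. Without Vim the sums were 11.8, 1.73, 108 and 178 FPKM, higher in both JNK_KO lines, where most of the sum was Dcn (decorin). Dcn was at 0.430 and 0.389, then 79.7 and 162 FPKM, and Pdgfra at 0.325 and 0.183, then 24.7 and 7.82 FPKM. Col1a2 was at 10.3 and 0.374, then 0.698 and 2.56 FPKM, highest in JNK_WT replicate 1, where it was most of the sum. Col1a1 and Lum were under 1 FPKM in all lines. The 5 basal markers summed to 14.9, 530, 29.7 and 349 FPKM, high in the 2 lines with the lower medians of the mitotic genes. Most of the sum in these 2 lines was Krt14, which was at 7.34, 443, 26.7 and 313 FPKM. Trp63 was also higher in these 2 lines. Krt5 was high in JNK_WT replicate 2 alone, at 61.9 FPKM against 0.205 FPKM in JNK_KO replicate 3. Acta2 was highest in JNK_KO replicate 3, and Myh11 was under 1 FPKM in all lines. Leukocyte markers summed to at most 21.9 FPKM (5 of 7 under 1 FPKM in all lines), and all 5 endothelial markers were under 1 FPKM. RNA of the JNK genes was lower in both JNK_KO lines, without being absent. Mapk8 was at 23.9 and 19.1 FPKM in JNK_WT and 4.30 and 4.27 FPKM in JNK_KO cells. Mapk9 was at 29.7 and 24.3, then 12.6 and 8.66 FPKM. At the protein level, the study's immunoblots of JNK_KO tumor cells showed no detectable JNK. Trp53, for which no intact line was compared, was between 1.55 and 5.72 FPKM in the 4 lines.

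Genes of the same pathway outside the 40 were examined next. A list of 116 other mitotic genes, such as further kinetochore, condensin, cohesin and spindle genes, was measured in full, and 0 were called, with 1 at an unadjusted p-value under 0.05. Their median difference was 0.11, with 23 genes higher and 11 lower in both JNK_KO lines (19.8% and 9.48%, against 18.3% and 16.7% of all genes). JNK_KO replicate 1 exceeded replicate 3 in 101 of the 116 (87.1%) and was the highest library in 66 (56.9%). Hjurp, the chaperone that deposits Cenpa at centromeres, had the largest difference of this list. It was at 36.8 and 34.2 FPKM in JNK_WT and at 68.5 and 77.4 FPKM in JNK_KO lines, with close values within each genotype and a log2 difference of 1.02 (SE 0.22, limma adjusted p-value 0.378). Its client Cenpa differed by 0.08. Esco2, a cohesin acetyltransferase, was at 4.64 and 14.4, then 12.5 and 17.0 FPKM, and Melk, a mitotic kinase, was at 9.41 and 15.04, then 26.2 and 14.5 FPKM, both with overlapping groups.

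The S phase and replication list had 58 measured genes, of which 0 were called and 1 had an unadjusted p-value under 0.05 (Rpa3). Their median difference was -0.02, with 6 genes higher and 8 lower in both JNK_KO lines (10.3% and 13.8%, against 18.3% and 16.7% of all genes). Ccne2, the cyclin E2 of S phase entry, was at 6.11 and 6.48 FPKM in JNK_WT and 19.99 and 9.25 FPKM in JNK_KO cells (1.01, SE 0.44, limma adjusted p-value 0.722). Rpa3, a subunit of the single-strand binding protein RPA, was at 80.9 and 99.4, then 49.9 and 40.4 FPKM (-0.98, SE 0.25, limma adjusted p-value 0.451). Mcm2, of the replicative helicase, was at 73.5 and 52.2, then 41.5 and 28.7 FPKM (-0.82, SE 0.32, limma adjusted p-value 0.665). Rpa3 and Mcm2 both lie on chromosome 6. JNK_KO replicate 1 exceeded replicate 3 in 52 of the 58 S phase genes (89.7%), as it did in the mitotic genes, and JNK_KO replicate 3 was the lowest library in 33 (56.9%). In the mitotic members JNK_KO replicate 3 was the lowest library in 7 (17.5%).

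The 17 genes of the DREAM and MYB-MuvB complexes and their partners, which set the level of late cell cycle genes, had a median difference of 0.08, and 0 were called. In 3 of them both JNK_KO lines were higher, and in 2 both were lower (17.6% and 11.8%, against 18.3% and 16.7% of all genes). Tfdp2, an E2F partner, was at 13.4 and 13.1 FPKM in JNK_WT and at 7.55 and 8.65 FPKM in JNK_KO lines (-0.65, SE 0.27, limma adjusted p-value 0.711). Rb1, the retinoblastoma gene, was at 3.60 and 10.3, then 8.11 and 10.4 FPKM, with JNK_WT replicate 1 far below the other 3 lines. Lin52, a MuvB core subunit, was at 6.41 and 4.89, then 3.43 and 4.74 FPKM (-0.39, SE 0.33). The medians of this list differed little between the lines, at 0.09 and -0.09 in JNK_WT and 0.09 and -0.01 in JNK_KO cells relative to the mean of the 4 libraries.

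**Figure D5:**
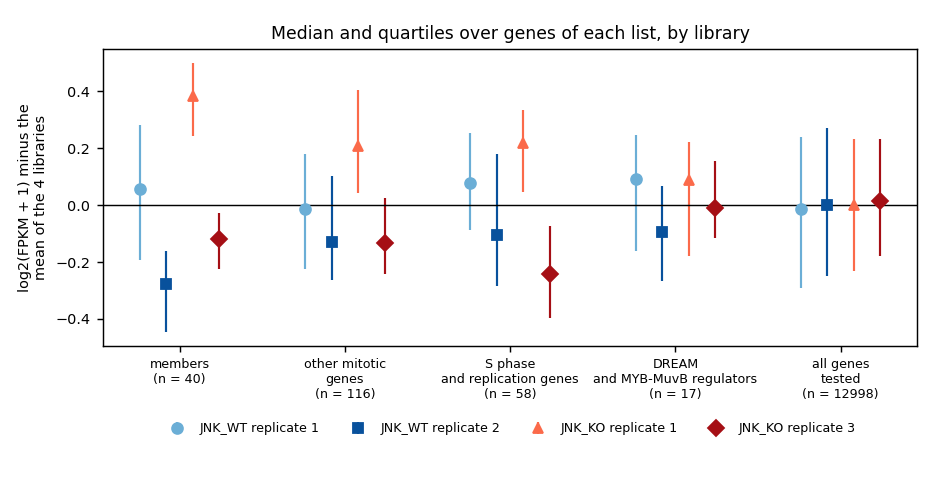
Median (symbols) and quartiles (bars) over genes of log2(FPKM + 1) minus the mean of the 4 libraries, for the 40 members, 3 further gene lists and all 12998 genes tested. JNK_KO replicate 1 has the highest median of the members, the other mitotic genes and the S phase genes (0.38, 0.21 and 0.22), while the medians of all genes lie near 0.

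Some levels are less certain than others because reads can be shared. By the GENCODE annotation, exons of Ccna2, Kif20a, Prc1 and Ncapg overlap an exon of a gene on the opposite strand by 510 to 1271 bases, and no source states that the libraries kept strand. Pseudogenes are named for Ccnb1 and Ccnb2 (Ccnb1-ps and Ccnb2-ps), whose reads could be split between copies.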

How the data were processed

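RNA was extracted with the RNeasy kit from 4 established mammary tumor cell lines, and TruSeq libraries were sequenced as single-end reads. The authors trimmed the reads, sampled each library to a similar read number, aligned them to mm10 (GRCm38) with TopHat2 2.0.14 and Bowtie2, and estimated FPKM with Cufflinks 2.2.1. The deposited values are FPKM, 1 per gene in each library and none pooled. The annotation they used was not given in the sources used here.

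Of 38741 rows, 27 with symbols turned into calendar dates and 1 without a value were left out. Groups and replicate numbers were taken from the sample titles. Each line came from 1 tumor, and p-values measure the spread between these 4 lines only. Genes with FPKM of at least 1 in at least 2 libraries were fitted with limma 3.58.1 in R 4.3.3 (lmFit, eBayes with an intensity trend, two-sided) on log2(FPKM + 1), a scale that understates changes of low genes, with Benjamini-Hochberg adjustment over all 12998 genes. The study's Cuffdiff test needs aligned reads and was not repeated. The script was tested on simulated data. No stated read number per library was used, and depths relative to JNK_KO replicate 1 were estimated from the most common ratio of low FPKM values. FPKM are not counts, so no interval that needs a read number is given, and n = 2 limits the precision.

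The 40 members and the other lists were chosen with earlier results of these data known. All members are named by role. Values in every library are given for a set of 10 central genes, for the 10 members whose log2 difference was farthest from 0, and for the highest and lowest member of each role, and of each further list the 3 genes with the largest absolute difference are named (Cdt1 and Gins2 of the S phase list were not analysed here). Values of other members were added for partners of these genes after they were seen. Gene positions came from GENCODE M21 and matched 12758 of the tested genes (98.2%), and promoters from RefSeq (GRCm38.p6). Other pseudocounts, filters, scalings, variance models, thresholds and fits without each library were run as alternatives. Tables used pandas 2.3.3 in Python 3.11.15 and figures matplotlib 3.10.9.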

Additional observations from a re-analysis of the deposited data

How the results depend on the processing

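With 2 lines a group, fits without 1 library leave 1 line in a group, which is then assumed to vary like the other group. Members called were 0 under every alternative (smallest limma adjusted p-value of a member 0.552), which in a design this small says nothing about stability. Over all genes the 0 calls became 10 with a pseudocount of 0.1, 14 with 0.5, 14 with equal FPKM sums, 14 without the intensity trend and 25 at an adjusted p-value under 0.1, and stayed at 0 otherwise. Without 1 library, 3 to 8 members were past 0.75 in place of 1, and 20 to 33 in place of 15 did not overlap (14 with quantile normalization). A group of 1 line needs only to lie outside the 2 lines of the other group, which is easier for any gene. The counts of 20 to 33 can therefore not be compared with 15, and no share over all genes is given for these fits. The median difference of the members ran from -0.0017 (without JNK_KO replicate 1) to 0.52 (without JNK_KO replicate 3), that of the other mitotic genes from -0.077 to 0.29 on leaving out the same libraries, that of the S phase genes from -0.24 to 0.22, and that of the DREAM and MYB-MuvB regulators from 0.01 to 0.10, with -0.0065 at equal FPKM sums. Equal FPKM sums, where 1 gene at 108479 FPKM in JNK_KO replicate 1 enters the scaling, gave 19 in place of 29 members highest in that line. They gave 29 in place of 23 lowest in JNK_WT replicate 2, and 36 in place of 37 higher in JNK_KO replicate 1 than in replicate 3. No share over all genes was taken for these counts under equal FPKM sums. The median of all genes moved from 0.01 to -0.07 under that scaling and to -0.04 under quantile normalization, and the cause of the other changes was not tested.

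Equal FPKM sums turned the direction of Cdk1 (-0.070), Cenpa (-0.011) and Plk4 (-0.0057). Leaving out 1 library turned the direction of 20 members, whose log2 differences then ran from -0.35 to 0.40 for Cdk1, -0.11 to 0.82 for Ccnb1, -0.36 to 0.67 for Ccnb2, -0.048 to 0.81 for Plk1, -0.17 to 0.69 for Aurka, -0.27 to 0.25 for Nek2, -0.35 to 0.26 for Bub3, -0.26 to 0.59 for Birc5, -0.043 to 0.20 for Cenpa and -0.82 to 0.34 for Cenpf. The ranges were -0.058 to 0.49 for Ndc80, -0.26 to 0.50 for Kif18a, -0.22 to 0.61 for Tpx2, -0.17 to 0.34 for Plk4, -0.17 to 0.71 for Kif20a, -0.26 to 0.50 for Kif23, -0.19 to 0.64 for Prc1, -0.54 to 0.19 for Top2a, -0.0076 to 0.68 for Espl1 and -0.036 to 1.002 for Mki67. The other 20 members kept their direction in every alternative run.

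No paired analysis was possible because just 1 replicate number occurs in both genotypes, and the lines came from separate tumors.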
